A study of Mus musculus with 48 samples.

Results

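The genes described here are *Ebf1*, *Ebf2*, *Ebf3*, *Barhl1* and *Barhl2*, 5 of the 16510 genes in the count table, and the neurons that held their transcripts. They were found by name, and they were chosen by their levels in Eed-cKO against control embryos, with a lower *Ebf2* level and kept *Barhl* neurons in view, so that contrast is given for them as a description with no test. Of 9828 neuron-like cells, 2242 held at least 1 UMI (a unique molecular identifier, which marks 1 captured transcript) of *Ebf1*, *Ebf2* or *Ebf3*, and 1108 held one of *Barhl1* or *Barhl2*.

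EBF proteins (early B-cell factors, also called COE or Olf proteins) are helix-loop-helix transcription factors that act as dimers, and in the nervous system they are known for roles in neuronal differentiation and migration. The zinc-finger proteins ZFP423 and ZFP521 bind EBF factors and change their activity. BARHL1 and BARHL2 are homeodomain factors related to fly BarH, and in the posterior hypothalamus they mark developing glutamatergic neurons of the subthalamic and premammillary regions, next to the factors FOXA1 and LMX1A. EED is a core subunit of Polycomb repressive complex 2, which places the repressive methyl mark on lysine 27 of histone H3.

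Single cells came from the hypothalamus of mouse embryos at E18.5, shortly before birth. Control embryos were Eed fl/fl, and Eed-cKO embryos were Eed fl/fl and carried Sox1-Cre, which is expressed in the neural plate and thus through the whole central nervous system, so neurons and glia carry the deletion while vessels, meninges and microglia are not expected to. There were 6 control embryos (2 female, 4 male, from 4 litters; 22 libraries) and 9 Eed-cKO embryos (5 female, 4 male, from 6 litters; 26 libraries), and the hypothalamus of an embryo was divided over several libraries. No litter, read from the leading number of the library names, held both genotypes, so genotype and litter cannot be told apart.

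The table held 7186 control and 6935 Eed-cKO cells, and the UMI total of an embryo ran from 5363119 to 7487417 in control and from 658175 to 6299181 in Eed-cKO. Between libraries, 103 pairs of cells shared a barcode, and 0 of those pairs had equal counts. Cells outside clusters named for vessels, meninges or microglia are called All-Hypo (6839 control and 6454 Eed-cKO cells). These include 61 Eed-cKO and 0 control cells of a cluster led by *Ttr*. It was named for the pituitary markers *Cga*, *Tshb* and *Pitx1*, but the ependymal markers *Foxj1*, *Rsph1*, *Dynlrb2* and *Pifo* were raised in it too. *Ttr*, *Kcne2*, *Aqp1* and *Folr1*, on no marker list, were among its top genes, so the pituitary name is uncertain. An unnamed cluster led by *Alas2* added 243 Eed-cKO and 2 control cells, up to 17.7% of All-Hypo cells in 1 Eed-cKO embryo. Unnamed clusters led by *Pcdh11x* and *Rn45s* (medians of 1245 and 1012.5 UMIs) added 672 and 367 control and 372 and 193 Eed-cKO cells. *Eed* itself was at 32.2 ± 1.76 CPM (counts scaled to 1000000 UMIs, mean ± SD, n = 6 embryos) in control and at 23.2 ± 2.52 (n = 9) in Eed-cKO, or -0.45 on the log2 scale (standard error 0.08) with an adjusted p of 0.000454 in edgeR's test, with all 9 Eed-cKO embryos under all controls. Its tags lie at the 3′ end, where a deletion of inner exons leaves them countable, so this is a weak check of the labels. Hox genes, which the hypothalamus does not normally express, gave 6 UMIs in control and 16045 in Eed-cKO All-Hypo cells.

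The genes lie on 5 chromosomes of mm10. *Ebf1* is at chr11:44617317-45008091 and *Ebf2* at chr14:67233292-67430918, both on the plus strand. *Ebf3* is at chr7:137193673-137314445, *Barhl1* at chr2:28907679-28916668 and *Barhl2* at chr5:106452523-106458166, all on the minus strand. Exons of *Ebf2* overlap *Gm10860* and those of *Ebf3* overlap *Gm45278*, each on the opposite strand, and whether the counting used strand is not given in the sources used here.

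The 250 bases before the start of both *Barhl* genes and of *Ebf3*, genes that shared neurons, are shown to set their composition side by side. They are RefSeq windows on GRCm38.p6, read 5′ to 3′ on the gene's strand, for the 3 members whose RefSeq start equals the annotated start. Capitals mark TAAT on either strand, the core recognised by many homeodomains.
Barhl1 (chr2:28916669-28916918, minus strand): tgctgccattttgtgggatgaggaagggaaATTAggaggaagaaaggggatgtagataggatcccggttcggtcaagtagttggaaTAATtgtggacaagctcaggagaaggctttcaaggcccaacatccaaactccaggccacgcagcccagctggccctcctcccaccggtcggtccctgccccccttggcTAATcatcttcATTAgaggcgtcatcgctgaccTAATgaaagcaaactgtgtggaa
Barhl2 (chr5:106458167-106458416, minus strand): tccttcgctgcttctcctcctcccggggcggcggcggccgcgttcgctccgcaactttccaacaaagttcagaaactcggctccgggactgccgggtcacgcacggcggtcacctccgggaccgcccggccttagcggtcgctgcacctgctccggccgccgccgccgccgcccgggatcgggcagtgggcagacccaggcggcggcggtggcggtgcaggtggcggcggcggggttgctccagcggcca
Ebf3 (chr7:137314446-137314695, minus strand): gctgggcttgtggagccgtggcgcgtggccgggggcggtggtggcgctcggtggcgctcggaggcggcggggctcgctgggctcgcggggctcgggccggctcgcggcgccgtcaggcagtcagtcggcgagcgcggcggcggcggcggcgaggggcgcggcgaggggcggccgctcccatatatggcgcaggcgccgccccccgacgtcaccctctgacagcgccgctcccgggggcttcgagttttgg
The *Barhl1* window held 5 matches to TAAT, and those of *Barhl2* and *Ebf3* held 0. Of 32851 promoter windows of that length, 54.9% held at least 1. The *Barhl1* window was 52.8% G or C with 7 CG dinucleotides, an observed over expected ratio of 0.403. That of *Barhl2* was 74.8% G or C with 36 CG dinucleotides and a ratio of 1.03, and that of *Ebf3* was 80% G or C with 43 and a ratio of 1.11. So *Ebf3* and *Barhl2* had a ratio above 98.0% and 95.6% of all windows, and *Barhl1* one near the middle, above 52.5%. CCCNNGGG, the core of the EBF site, which is the same on both strands, occurred 1 time before *Ebf3* and 0 times before the *Barhl* genes, against 11.8% of all windows with a match. Chromatin was not measured in these files, and a match is no more than a match of letters.

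*Ebf2* was lower in Eed-cKO All-Hypo cells, *Ebf1* and *Barhl1* were at higher mean levels, and *Ebf3* and *Barhl2* had means within the spread of the embryos. These levels are what the genes were selected on. In that comparison 15.3% of 12558 genes tested were called higher and 12.4% lower in Eed-cKO, and nothing is read from where the 5 genes stand against it. All 5 passed the filter on low counts. In sums of this kind, fewer cells that hold a gene and less RNA per cell cannot be told apart.

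*Ebf2* ran from 24.3 to 45.7 CPM in control, with a median of 30.5, and from 9.65 to 33.7 in Eed-cKO, with a median of 17.2. Of the 9 Eed-cKO embryos 8 were under every control, and 1 was inside the control range. The means were 31.9 ± 8.28 and 18.3 ± 7.41, or -0.84 on the log2 scale (standard error 0.21).

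*Ebf1* ran from 15.6 to 27.0 CPM in control (median 18.7) and from 19.0 to 51.4 in Eed-cKO (median 29.9). The groups overlapped, with 5 of 9 Eed-cKO embryos above every control. The log2 fold change was 0.59 (standard error 0.18), from 19.5 ± 3.88 to 29.2 ± 9.95.

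*Ebf3* ran from 109 to 185 CPM in control (median 118) and from 93.5 to 141 in Eed-cKO (median 127). Its ranges overlapped widely, and the fitted log2 fold change, -0.09, was smaller than its standard error of 0.12.

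*Barhl1* ran from 11.8 to 26.8 CPM in control (median 19.6) and from 13.8 to 46.8 in Eed-cKO (median 21.4). The 2 medians lay close together and 3 of 9 Eed-cKO embryos stood above every control, which set the mean difference (log2 0.49, standard error 0.22). *Barhl2* ran from 27.6 to 32.3 CPM in control (median 29.2) and from 21.5 to 32.0 in Eed-cKO (median 27.8). Its log2 fold change was -0.07 (standard error 0.09), and 4 of 9 Eed-cKO embryos were under every control. Without the neuron-like cluster led by *Tfap2b*, which held 12 control and 1443 Eed-cKO cells, the log2 values were -0.59 for *Ebf2*, 0.49 for *Ebf1*, 0.10 for *Ebf3*, 0.77 for *Barhl1* and 0.18 for *Barhl2*.

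**Figure D1:**
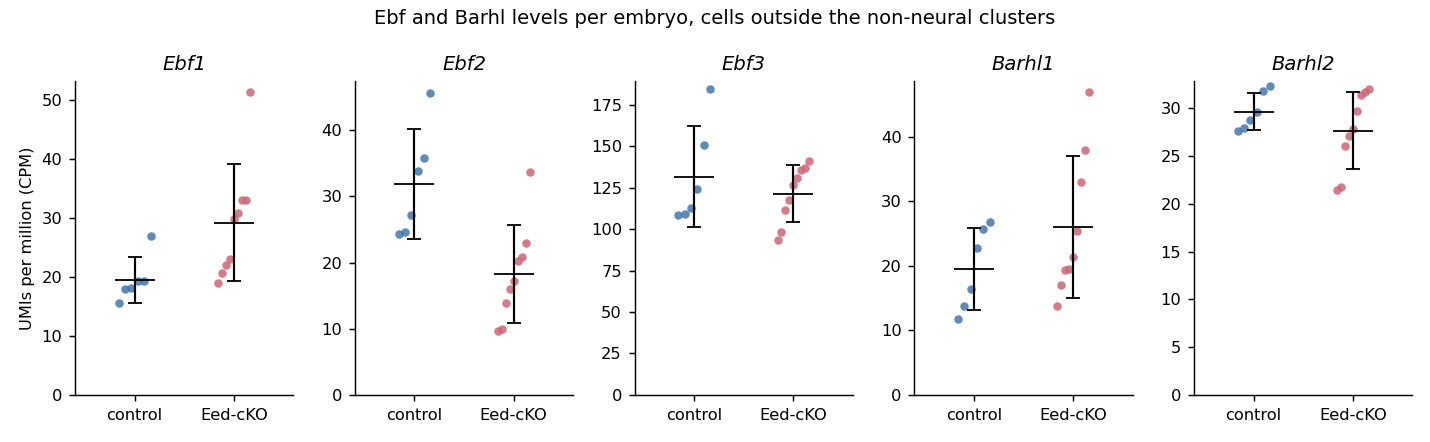
Level of each gene in All-Hypo cells, in CPM, by genotype: each point is 1 embryo (6 control, 9 Eed-cKO), the horizontal bar the mean and the error bar the SD. For *Ebf2*, 8 of 9 Eed-cKO embryos lie under all controls, and for *Barhl2* both groups lie between 21.5 and 32.3 CPM.

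By sex, *Ebf2* averaged 25.7 CPM in the 2 female and 35.0 in the 4 male control embryos, and 20.3 in the 5 female and 15.7 in the 4 male Eed-cKO embryos. *Barhl1* averaged 12.8 in female and 22.9 in male controls, and 25.7 in female and 26.3 in male Eed-cKO embryos. With 2 female controls these values are a description.

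The share of cells that held a gene moved the way of its mean level for *Ebf1*, *Ebf2* and *Barhl1*, while for *Ebf3* and *Barhl2* the mean level was slightly lower in Eed-cKO and the share slightly higher. The share of All-Hypo cells with an *Ebf2* UMI was 6.96% ± 1.89 (SD, n = 6) in control and 4.19% ± 1.09 (n = 9) in Eed-cKO. For *Ebf1* it was 3.96% ± 0.609 and 7.13% ± 2.05. For *Ebf3* it was 13.1% ± 1.38 and 16.1% ± 3.30, for *Barhl1* 4.32% ± 0.805 and 5.50% ± 1.56, and for *Barhl2* 6.55% ± 0.487 and 6.92% ± 1.26. The means with their SDs overlapped between genotypes for every gene but *Ebf1*. Most positive cells held few transcripts: 54.4% of *Ebf2*-positive control cells and 58.3% of those in Eed-cKO held 1 UMI, and *Ebf3*, with 29.4% and 37.9%, was the gene whose cells least often held 1.

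Free RNA in droplet libraries can give a UMI to a cell that does not express the gene, so the shares were set beside those of non-neural cells. In control, 1.73% of 347 non-neural cells (median 3946 UMIs) held *Ebf2*, 0.288% *Barhl1* and 0.865% *Barhl2*, against 8.04%, 5.22% and 7.72% of 5210 neuron-like cells (median 5552 UMIs). *Ebf3* was in 12 of the non-neural and 783 of the neuron-like cells. In Eed-cKO the non-neural shares (481 cells, median 3708 UMIs) were 4.37% for *Ebf2*, 4.16% for *Ebf3*, 1.46% for *Barhl1* and 1.66% for *Barhl2*, and the neuron-like ones (4618 cells, median 4834 UMIs) 4.57%, 18.3%, 6.67% and 8.08%. Over all Eed-cKO All-Hypo cells the *Ebf2* share, 4.28%, was close to that of non-neural cells, but the latter was not alike between classes: 19 of the 21 positive non-neural cells were vascular leptomeningeal, and 1 of 123 endothelial cells (0.813%) held it. In the clusters led by *Barhl1* and by *Neurod6*, described next, 14.1% and 27.2% of Eed-cKO cells held it. *Ebf1* was different, with 22.5% of control and 17.5% of Eed-cKO non-neural cells positive against 4.70% and 8.51% of neuron-like cells. In endothelial cells 34.0% of 150 control and 36.6% of 123 Eed-cKO cells held it, with pooled levels of 93.3 and 109 CPM, and pericytes or smooth muscle cells were at 211 and 210 CPM. Of 6 listed markers of each class, 3 pericyte, 3 vascular leptomeningeal and 1 endothelial marker passed the filter in All-Hypo sums, and all were called higher in Eed-cKO. That filter used the median over all embryos, most of them Eed-cKO. A marker high in Eed-cKO alone could pass it and one high in control alone could not, so these directions were in part set by the filter. In neuron-like clusters alone the log2 fold change of *Ebf1* was 0.71 and that of *Ebf2* -0.77.

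Among neuron-like clusters the 5 genes were concentrated in a few, each named here by its leading gene. The clusters were made with these genes included, so their levels there are a description. The cluster led by *Barhl1* (610 control and 383 Eed-cKO cells, with *Irx5*, *Lmx1a* and *Foxa1* among its top genes) held 79.0% of the *Barhl1* UMIs of control cells and 72.0% of those of Eed-cKO. It also held 49.4% and 37.1% of *Barhl2*, 44.6% and 26.4% of *Ebf2*, about 30% and 16.4% of *Ebf3*, and 19.4% and 6.60% of *Ebf1*. A larger part of each gene's transcripts lay outside it in Eed-cKO, where the cluster itself was also a smaller share of All-Hypo cells (5.56% ± 2.18, n = 9, against 8.85% ± 1.87, n = 6, in control).

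The cluster led by *Neurod6* (243 and 239 cells, with the neuronal differentiation factors *Neurod2* and *Neurod1*, *Crhbp* and *Nos1* among its top genes) held all 5. In control it had 28.6% of the *Ebf1* UMIs, 19.5% of *Ebf2*, 19.1% of *Ebf3*, 8.67% of *Barhl1* and 20.0% of *Barhl2*, and in Eed-cKO 18.0%, 33.1%, 19.6%, 6.09% and 16.7%. The cluster led by *Tfap2b*, which is almost entirely Eed-cKO cells and has Hox genes among its top genes, held 26.1% of Eed-cKO *Ebf1* UMIs, 13.2% of *Ebf3*, 9.40% of *Barhl2*, 8.02% of *Ebf2* and 5.34% of *Barhl1*.

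**Figure D2:**
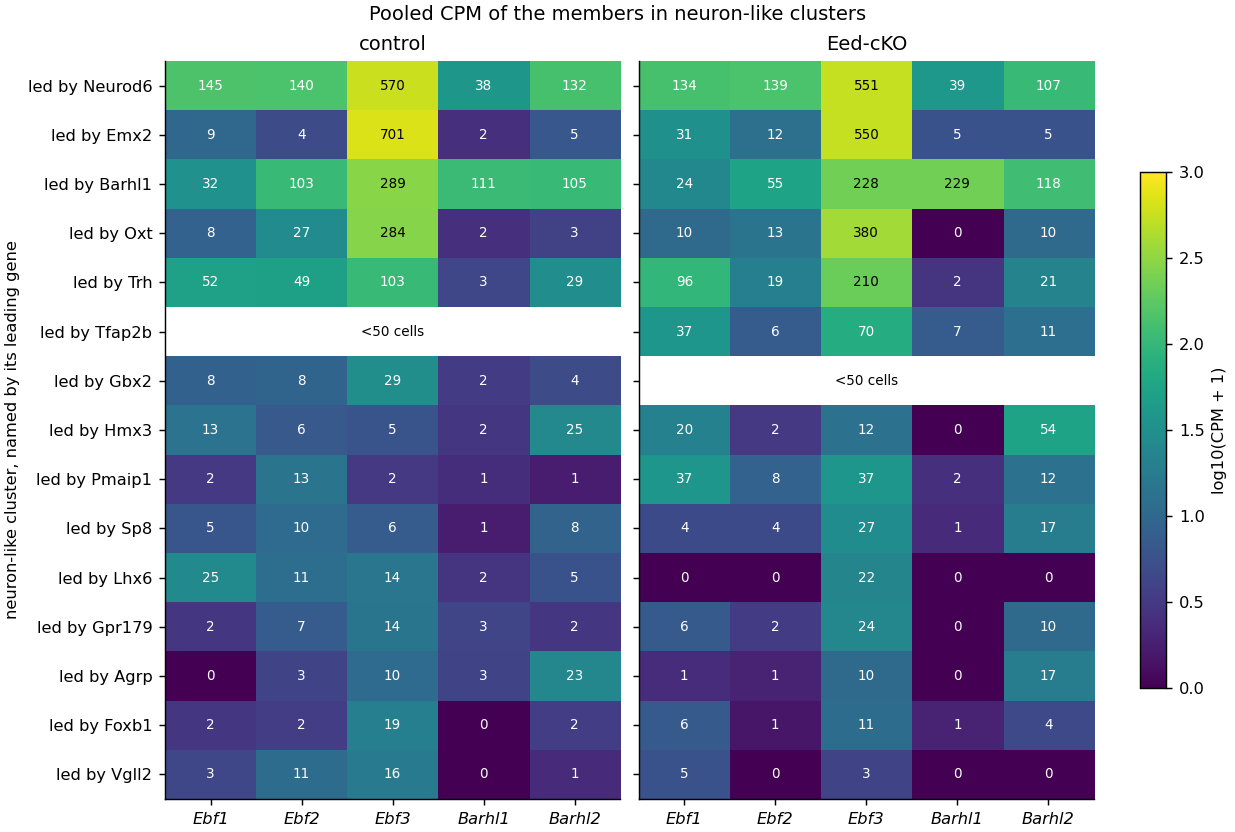
Pooled level of each gene (columns) in the neuron-like clusters (rows, named by leading gene) of control and Eed-cKO, with CPM printed in each cell and colour on a log10(CPM + 1) scale; clusters with under 50 cells of a genotype are blank. *Barhl1* is at 111 and 229 CPM in the cluster it leads, and *Ebf3* in control is at 701, 570, 289 and 284 CPM in the clusters led by *Emx2*, *Neurod6*, *Barhl1* and *Oxt*.

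*Ebf3* was the widest of the 5. In control its level per embryo was 696 ± 50.8 CPM in the cluster led by *Emx2* (625 to 776, n = 6), 573 ± 107 in that led by *Neurod6* (394 to 657), 283 ± 94.1 in that led by *Barhl1* (168 to 412), 262 ± 72.2 in that led by *Oxt* (175 to 389) and 99.6 ± 81.1 in that led by *Trh* (22.6 to 205). The ranges of neighbours in this order overlapped in each case, those of the *Emx2* and *Neurod6* clusters only between 625 and 657 CPM, and the clusters led by *Barhl1* and by *Oxt* did not differ beyond their spread. In Eed-cKO, the same 5 clusters were at 579 ± 182, 575 ± 144, 242 ± 103, 382 ± 114 and 194 ± 126 CPM (n = 8 embryos with at least 10 cells, 6 for *Oxt*), all overlapping the control ranges.

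Of the 5 clusters followed, *Ebf2* per embryo in control was highest in those led by *Neurod6*, with 128 ± 47.3 CPM, and by *Barhl1*, with 101 ± 31.7, which overlapped, and then in those led by *Trh* (44.2 ± 32.6) and *Oxt* (25.3 ± 18.3). In the cluster led by *Barhl1*, it ran from 70.7 to 161 CPM in control (median 96.6) and from 17.2 to 82.5 in Eed-cKO (median 55.4, n = 8). Only 2 of the 8 Eed-cKO embryos reached into the control range, and the means were 101 ± 31.7 and 51.4 ± 21.5. In the cluster led by *Neurod6*, it ran from 56.8 to 191 in control (median 132) and from 55.2 to 233 in Eed-cKO (median 147), with means of 128 ± 47.3 and 149 ± 67.7. The ranges overlapped throughout in this cluster. The difference between the 2 clusters was not tested, since the genotype contrast of *Ebf2* chose the gene.

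*Barhl1*, in the cluster it leads, ran from 65.9 to 143 CPM in control (median 107) and from 102 to 306 in Eed-cKO (median 226). All but 1 of the 8 Eed-cKO embryos were above every control. *Barhl2* in that cluster was at 110 ± 25.3 and 121 ± 48.1 CPM, with wide overlap. In the cluster led by *Neurod6*, *Barhl1* was at 38.8 ± 7.90 and 41.8 ± 20.0, and *Barhl2* at 129 ± 36.7 and 115 ± 58.6. *Ebf1* there was at 161 ± 88.4 and 152 ± 58.6 CPM, and at 31.8 ± 10.6 and 25.1 ± 31.7 in the cluster led by *Barhl1*.

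**Figure D3:**
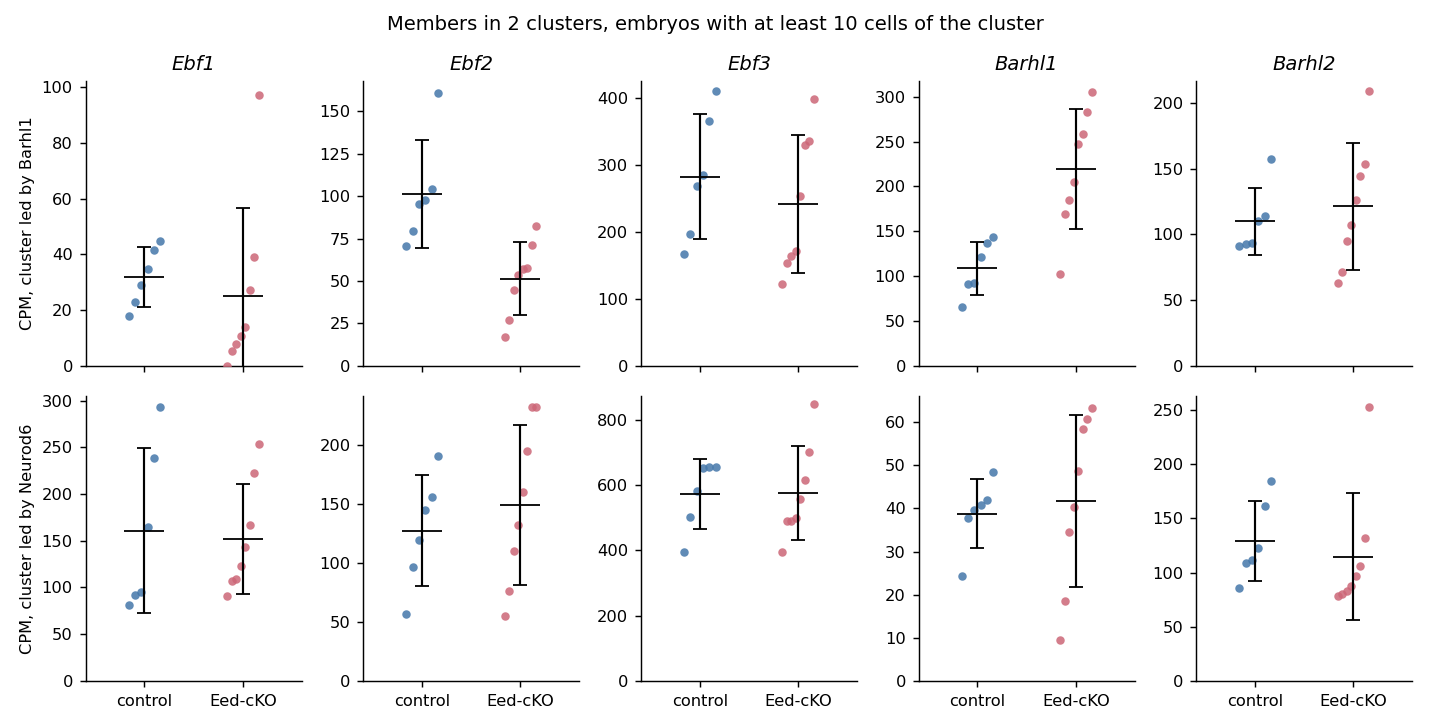
CPM of each gene per embryo in the cluster led by *Barhl1* (top) and the cluster led by *Neurod6* (bottom), with points for the 6 control and 8 Eed-cKO embryos that had at least 10 cells of the cluster, the bar the mean and the error bar the SD. *Ebf2* is lower in Eed-cKO in the top row (101 against 51.4) and overlaps in the bottom row (128 against 149).

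Neurons that held a *Barhl* transcript numbered 550 of 5210 neuron-like cells in control and 558 of 4618 in Eed-cKO. Of these, 43.1% in control and 41.2% in Eed-cKO also held an *Ebf* transcript, and of the *Ebf*-positive neurons (1117 and 1125) 21.2% and 20.4% also held a *Barhl* transcript. Per embryo, *Ebf2* was found in 21.9% ± 6.57 of control *Barhl*-positive neurons (12.3% to 28.4%, median 24.8%, n = 6) and in 14.8% ± 6.87 of those of Eed-cKO (6.00% to 26.7%, median 13.6%, n = 8). The Eed-cKO median was lower, and the ranges overlapped. *Ebf3* was in 32.9% ± 6.48 and 36.4% ± 6.32, and *Ebf1* in 11.9% ± 4.23 and 15.4% ± 8.34.

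Pairs of the genes met in a neuron more often than independent draws at these shares would give, in both genotypes. *Barhl1* and *Barhl2* met in 124 control neurons, where independence would give 21.3, and in 123 Eed-cKO neurons, where it would give 25.1. *Ebf2* and *Ebf3* met in 193 neurons against 63.6, and in 146 against 39.1, so 46.1% of *Ebf2*-positive control neurons and 69.2% of those in Eed-cKO held *Ebf3*. The lowest ratio was that of *Ebf1* and *Barhl1*, 1.8 in control and 1.2 in Eed-cKO. Positive neurons were deeper than negative ones (a median of 7818 against 5390 UMIs for *Ebf2* in control), and depth alone raises such ratios; its part was not tested. All of *Ebf1*, *Ebf2* and *Ebf3* were found in 48 control and 42 Eed-cKO neurons.

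Over 27 clusters of at least 50 cells, with both genotypes summed, the genes most like each member in log2(CPM + 1) are given as a description, since the clusters share libraries and differ in depth. *Ebf2* was most like *Neurod6* (Pearson r = 0.79), followed by *Adamts2*, *Neurod2*, *Prdm8* and *Chrna6* (0.69 to 0.76). *Ebf3* was most like *Tmem163* (0.81), *Uncx* and *Neurod2* (0.79 each), *Neurod6* (0.77) and *Sim1* (0.76), a regulator of paraventricular neurons. *Barhl1* was most like *Foxa1* (0.82), *Irx3* (0.77), *Barhl2* (0.73), *Lmx1a* and *Crnde*, and *Barhl2* was most like *Barhl1*, *C1ql1*, *Foxa1*, *Irx6* and *Prss12* (0.68 to 0.73). Among the genes nearest *Ebf1* were *Robo3*, *Notch4*, *Car4* and *Gja4* (0.67 to 0.73), of which *Notch4* and *Gja4* are known from arterial endothelium. Hypocretin neurons, taken as cells with at least 5 *Hcrt* UMIs, numbered 5 in control and 0 in Eed-cKO, and 0 of the 5 held any of the genes.

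To ask which genes the positive neurons shared, UMIs of neuron-like cells with and without each gene were summed within each embryo and compared by edgeR's quasi-likelihood test with the embryo as a block and Benjamini-Hochberg adjustment over all genes. In every set, and in both genotypes, *Slc17a6*, the vesicular glutamate transporter VGLUT2, was called higher in positive neurons, though with cells thinned to 2000 UMIs the calls for *Ebf1* and *Ebf2* in Eed-cKO were lost. In control, *Slc32a1*, the vesicular GABA transporter, and *Gad1* and *Gad2*, which make GABA, were lower in positive neurons of all 4 sets (*Ebf1*, *Ebf2*, *Ebf3*, and *Barhl1* or *Barhl2*).

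In control, 1.01% of 14083 genes were called higher and 1.74% lower in *Ebf1*-positive neurons, 1.94% and 2.61% in *Ebf2*-positive ones, and 4.11% and 4.00% in *Ebf3*-positive ones; in *Barhl*-positive neurons 2.30% and 3.05% of 14082 were. Of the 6 transmitter genes tested, 1 was called higher and 3 lower in each set but that of *Ebf3*, where 4 were lower. *Slc17a6* in *Ebf3*-positive neurons was at 584 ± 79.6 CPM against 335 ± 27.5 in the negative ones, higher in 6 of 6 embryos and by 0.82 on the log2 scale (standard error 0.04) with an adjusted p of 6.59e-19. *Gad1* was at 89.5 ± 33.0 against 434 ± 51.8 (log2 -2.28, standard error 0.09, adjusted p = 2.30e-23), and *Slc32a1* at 34.1 ± 19.9 against 130 ± 22.9 (log2 -1.88). In *Barhl*-positive neurons, the log2 fold change was 0.64 for *Slc17a6*, -1.93 for *Gad2* and -1.50 for *Slc32a1* (adjusted p of 6.76e-16, 1.24e-21 and 1.68e-14), each in 6 of 6 embryos.

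Members were also raised in the positive neurons of others. In *Ebf2*-positive control neurons, *Ebf3* was at 458 ± 145 CPM against 97.9 ± 9.85 (log2 2.20), *Ebf1* at 57.5 ± 17.7 against 15.9 ± 1.82 (log2 1.84), *Barhl2* at 66.9 ± 22.1 against 26.2 ± 2.16 (log2 1.33) and *Barhl1* at 37.2 ± 10.8 against 18.3 ± 6.62 (log2 0.97, adjusted p = 0.000254). All 4 were higher in 6 of 6 embryos. With cells thinned to 2000 UMIs the *Barhl1* call was lost (log2 0.47, adjusted p = 0.782), and the other calls were not. *Barhl1* was the exception elsewhere: its log2 value in *Ebf1*-positive control neurons was -0.03 (adjusted p = 0.986), and in *Ebf3*-positive ones 0.65 (adjusted p = 0.0759).

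The calls of transcription factors that neighbour *Barhl* in the subthalamic, premammillary and mammillary regions were in part shared by the sets and in part not. In *Barhl*-positive control neurons 7 of 16 tested were called higher and 6 lower. Among the higher, *Lmx1a* rose from 14.4 ± 6.73 to 140 ± 29.8 CPM (log2 3.30, standard error 0.13, adjusted p = 7.42e-28), *Irx3* by 3.21, *Foxa1* by 3.15, *Irx5* by 3.11, *Nr4a2* by 1.78 and *Foxp2* by 1.07. *Foxb1*, a mammillary factor, fell by 2.29 on that scale, *Nkx2-1* fell by 1.83 and *Sim1* fell by 1.03. *Ebf3*-positive neurons shared the higher *Foxa1* (log2 1.98), *Lmx1a* (2.08) and *Nr4a2* (1.77) but had higher *Sim1* (1.18, adjusted p = 3.99e-13) and *Foxb1* (0.61, adjusted p = 1.69e-05) too, with 7 called higher and 1, *Meis2*, called lower. *Ebf1*-positive neurons had 4 higher (*Foxa1*, *Foxa2*, *Lmx1a*, *Nr4a2*) and 4 lower, and *Ebf2*-positive ones 6 higher and 6 lower, *Foxp1* (log2 -0.82) and *Foxp2* (-0.38) among the latter. With cells thinned to 2000 UMIs, *Foxa1* with *Ebf1* (log2 0.98, adjusted p = 0.199) and *Foxp2* with *Ebf2* (-0.25, adjusted p = 0.644) did not pass. The difference between sets was not tested, and cells are shared between them.

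Of the EBF family and cofactor genes, *Zfp521* was called higher in positive control neurons of all 4 sets (log2 0.70 for *Ebf1*, 0.61 for *Ebf2*, 0.71 for *Ebf3* and 0.54 for *Barhl*; adjusted p of 0.00257, 0.00214, 7.58e-05 and 0.00301). *Zfp423* did not pass in any (log2 -0.04 to 0.43), nor did *Zfp703*. *Ebf4*, the fourth family gene, was called lower in *Ebf3*-positive neurons (log2 -0.93, adjusted p = 8.98e-06), at 20.8 ± 4.90 against 39.4 ± 4.13 CPM. In Eed-cKO, *Zfp521* was called higher with *Ebf1* (log2 0.61), *Ebf2* (0.59) and *Ebf3* (0.35) but not with *Barhl* (0.13, adjusted p = 0.661), and *Ebf4* was called lower with *Ebf2* (-0.90), *Ebf3* (-0.69) and *Barhl* (-0.47). With cells thinned to 2000 UMIs none of these *Zfp521* calls was made (log2 0.13 to 0.58, the lowest adjusted p 0.0743), and of the *Ebf4* calls that with *Ebf3* in Eed-cKO was (log2 -0.65, adjusted p = 0.0455).

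**Figure D4:**
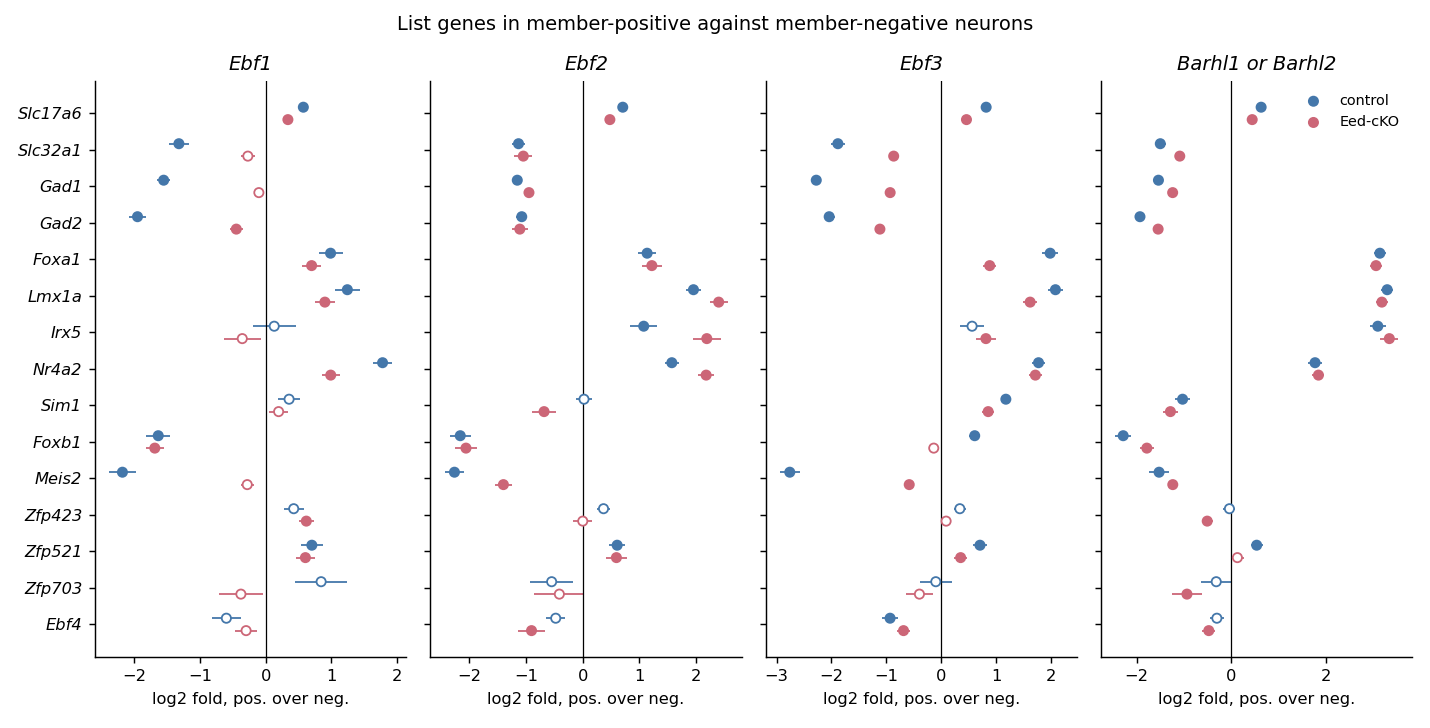
Log2 fold change of list genes in positive over negative neurons for each set (panels), with the standard error as a bar: filled points passed an adjusted p of 0.05 in edgeR's quasi-likelihood test, open points did not, blue is control (6 embryos) and red Eed-cKO (9 embryos). *Slc17a6* lies right of 0 in every panel, and the GABA genes lie nearer 0 in Eed-cKO in the *Ebf1* and *Ebf3* panels (*Gad1* in *Ebf3*-positive neurons, -2.28 in control and -0.93 in Eed-cKO).

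*Neurod6* was among the 5 largest rises shared by all control embryos in each *Ebf* set, and *Irx6*, *Irx3*, *Lmx1a* and *Foxa1* were in the *Barhl* set, which *Cga*, a pituitary hormone subunit, led at a low level (0.195 ± 0.223 to 5.02 ± 4.41 CPM). *Neurod6* rose by 3.56 on the log2 scale in *Ebf1*-positive, 2.58 in *Ebf2*-positive and 3.56 in *Ebf3*-positive neurons, joined by *Irx2* and *Irx1* (*Ebf1*), *Crhbp*, which encodes a binding protein for corticotropin-releasing hormone (*Ebf2*, from 6.87 ± 3.32 to 63.5 ± 39.3 CPM), and *Neurod2* (*Ebf2* and *Ebf3*). *Avp*, the vasopressin gene, showed the largest rise with *Ebf3*, from 48.0 ± 54.1 to 3129 ± 2109 CPM (log2 6.09, adjusted p = 1.2e-24), and one of the largest falls with *Barhl*, from 712 ± 488 to 6.46 ± 4.03 (log2 -6.85). *Oxt*, the oxytocin gene, was among the 5 largest falls for *Ebf1* (log2 -6.64), *Ebf2* (-5.75) and *Barhl* (-6.32). *Pmch*, the melanin-concentrating hormone gene, fell most with *Ebf3*, from 110 ± 110 to 1.84 ± 1.71 CPM.

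In Eed-cKO the same tests called 1.09% of 14098 genes higher and 2.04% lower for *Ebf1*, 1.55% and 3.0% for *Ebf2*, and 4.43% and 5.17% for *Ebf3*, and 4.16% and 5.24% of 14097 for *Barhl*. *Slc17a6* was called higher in all 4 sets, by 0.34, 0.48, 0.46 and 0.45 on the log2 scale. With cells thinned to 2000 UMIs it was at 0.23 with *Ebf1* (adjusted p = 0.320) and 0.30 with *Ebf2* (adjusted p = 0.264), and passed with *Ebf3* and *Barhl*. *Gad1*, *Gad2* and *Slc32a1* were called lower for *Ebf2*, *Ebf3* and *Barhl*, and for *Ebf1* only *Gad2* was (log2 -0.45, adjusted p = 0.000386), with *Gad1* at -0.10 (adjusted p = 0.528). Thinning also ended the calls of *Gad2* with *Ebf1* (log2 -0.46, adjusted p = 0.129) and *Slc32a1* with *Ebf2* (-0.78, adjusted p = 0.0843). In *Ebf1*-positive Eed-cKO neurons without the cluster led by *Tfap2b*, *Gad1* was at log2 -0.52 and was called lower. That cluster held 37.9% of *Ebf1*-positive, 22.5% of *Ebf3*-positive, 16.1% of *Ebf2*-positive and 15.6% of *Barhl*-positive Eed-cKO neurons.

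The *Barhl* set of Eed-cKO kept the same leading factors at like sizes: *Irx5* rose by 3.35, *Lmx1a* by 3.19 and *Foxa1* by 3.07 on the log2 scale, with 8 of 16 listed factors higher and 6 lower. *Barhl1* in *Ebf1*-positive Eed-cKO neurons was called lower, at 17.2 ± 9.86 against 31.9 ± 13.9 CPM (log2 -1.25, adjusted p = 2.94e-05, lower in 8 of 9 embryos), and -0.65 (adjusted p = 0.610) with cells thinned to 2000 UMIs. Of 31 Hox genes tested, 18 were called lower in *Barhl*-positive than in *Barhl*-negative Eed-cKO neurons (median log2 -1.16, against -0.05 over all genes), 16 in *Ebf3*-positive ones (median -0.83) and 8 in *Ebf2*-positive ones (median -1.28), with 0 called higher in these sets. For *Ebf1* 1 was called higher and 0 lower, with a median of -0.02. Hox genes lead the cluster headed by *Tfap2b*, and without it 8 of the Hox genes called lower with *Ebf3* had values above 0.

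The share of neurons with a transmitter transcript was compared at 1 depth, with each cell thinned to 2000 UMIs, which left out 257 of 5210 control and 326 of 4618 Eed-cKO neurons. In control, 61.3% ± 5.87 of *Ebf3*-positive neurons held *Slc17a6* (54.3% to 69.8%, median 60.0%, n = 6 embryos), against 30.9% ± 2.49 of negative ones (28.0% to 34.7%). The 2 ranges did not meet. *Slc32a1* was held by 5.62% ± 4.21 of *Ebf3*-positive neurons (up to 14.0%) and 20.8% ± 2.49 of negative ones (from 16.6%), again without overlap.

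The other sets had the same order. *Slc17a6* was in 52.0% ± 9.52 of *Ebf1*-positive, 53.4% ± 5.89 of *Ebf2*-positive and 53.9% ± 5.03 of *Barhl*-positive control neurons, against 34.8% ± 1.92, 33.9% ± 1.82 and 33.4% ± 2.09 of the negative ones. *Slc32a1* was in 8.14% ± 3.66, 9.69% ± 2.77 and 5.50% ± 3.71, against 19.0% ± 2.35, 19.2% ± 2.48 and 20.0% ± 2.35. Neurons with both were rare in control, from 0.627% ± 0.709 with *Barhl* to 1.46% ± 2.68 with *Ebf1*. The differences in *Slc17a6* and in *Slc32a1* pointed the same way in 6 of 6 control embryos, except *Slc17a6* with *Ebf1* (5 of 6). With 6 embryos the exact two-sided sign-flip permutation test cannot go below p = 0.03125, and the smallest value adjusted over the 24 comparisons was 0.0577 in control, so none passed there.

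With 9 embryos, 5 comparisons passed in Eed-cKO. *Slc17a6* was held by 60.0% ± 13.2 of *Ebf3*-positive against 41.9% ± 5.72 of negative neurons (a difference of 18.2 percentage points, exact permutation test, adjusted p = 0.0375, higher in 8 of 9 embryos) and by 57.4% ± 14.7 of *Barhl*-positive against 43.8% ± 6.27 of negative ones (13.5 points, adjusted p = 0.03125, 9 of 9 embryos, exact test). *Slc32a1* was in 13.1% ± 3.83 against 20.0% ± 1.44 for *Ebf3* (exact permutation test, adjusted p = 0.0375, lower in 8 of 9), a call lost without the highest Scrublet scores and without the cluster led by *Tfap2b* (exact permutation test, adjusted p = 0.0577 in each), and in 11.6% ± 2.92 against 19.6% ± 1.69 for *Barhl* (exact permutation test, adjusted p = 0.03125, lower in 9 of 9). The fifth was the share with both genes in *Ebf2*-positive neurons, 4.66% ± 3.02 against 7.94% ± 2.22 (exact permutation test, adjusted p = 0.03125, lower in 9 of 9). That difference, -3.28 points, turned to 0.59 without the cluster led by *Tfap2b*, was -0.46 without thinning and -0.53 at 1000 UMIs a cell, and did not pass in these or without the highest Scrublet scores. The remaining 3 calls were made under all 4 alternatives. Neurons with both were several times more common in Eed-cKO than in control in every set, positive or negative (4.66% to 7.99% against 0.627% to 1.46%), which was not tested.

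**Figure D5:**
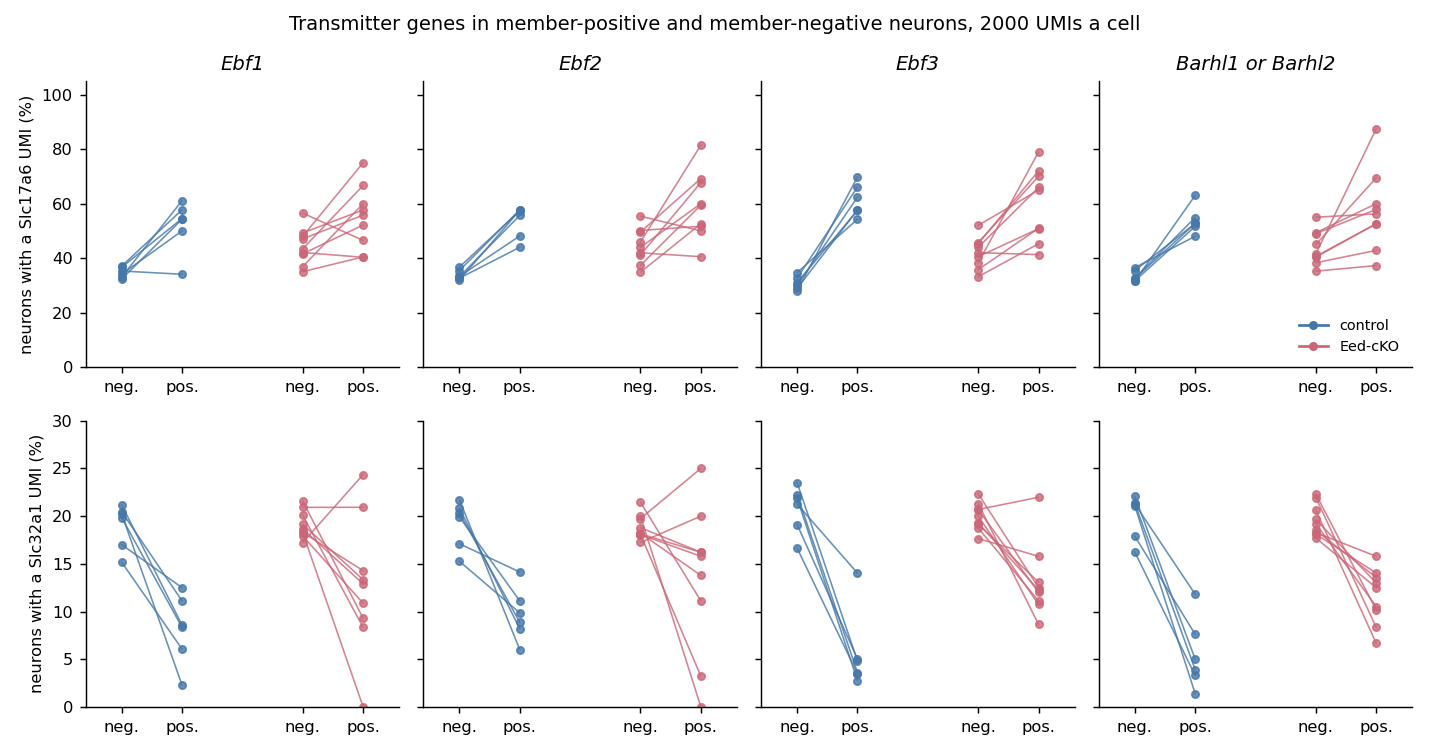
Percent of member-negative (neg.) and member-positive (pos.) neurons with a UMI of *Slc17a6* (top) and *Slc32a1* (bottom) after thinning each cell to 2000 UMIs, for each set; a line joins the 2 values of 1 embryo, blue for the 6 control and red for the 9 Eed-cKO embryos. All control lines for *Ebf3* rise in the top row and fall in the bottom row, and the Eed-cKO lines fall less steeply for *Slc32a1* (-15.2 points on average in control, -6.87 in Eed-cKO).

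Whether the positive minus negative difference itself changed with genotype was tested by exact two-sided permutation of embryos. None of the 12 comparisons passed after adjustment at 2000 UMIs a cell. The nearest was *Slc32a1* with *Ebf3*, 8.30 points closer to 0 in Eed-cKO (exact permutation p = 0.0044, adjusted p = 0.0527), followed by *Slc32a1* with *Barhl* (6.51 points, adjusted p = 0.0887, exact permutation test) and *Slc17a6* with *Ebf3* (-12.2 points, adjusted p = 0.173, exact permutation test). The call depended on the setting. *Slc32a1* with *Ebf3* passed without thinning (12.9 points), without the highest Scrublet scores (9.04 points) and without the cluster led by *Tfap2b* (10.9 points), with adjusted p of 0.0216, 0.0432 and 0.0048 in the exact permutation test. *Slc17a6* with *Ebf3* passed without thinning (adjusted p = 0.0048, exact permutation test), and *Slc32a1* with *Barhl* without that cluster (8.78 points, adjusted p = 0.0168, exact permutation test). In the clusters led by *Barhl1* and *Neurod6* alone, the share in positive neurons itself was compared in place of the difference. There *Slc32a1* was in 3.96% ± 4.99 of control and 4.50% ± 5.51 of Eed-cKO *Ebf3*-positive neurons (exact permutation test, adjusted p = 0.907). None of the 12 comparisons in those clusters passed. A p above the threshold does not show that the differences were alike.

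The last comparison asked what else differed between genotypes within positive neurons, from sums per embryo over 1117 control and 1125 Eed-cKO *Ebf*-positive neurons, members left out. edgeR's quasi-likelihood test called 2.27% of 13393 genes higher and 1.52% lower in Eed-cKO. *Gad1* rose from 150 ± 25.5 to 317 ± 52.7 CPM (log2 1.08, standard error 0.11, adjusted p = 1.74e-08), with all 9 Eed-cKO embryos above all controls. With cells thinned to 2000 UMIs *Gad1* passed, and *Slc32a1* (adjusted p = 0.0515) and *Gad2* (adjusted p = 0.109) did not. Without thinning *Slc32a1* rose from 50.2 ± 10.6 to 79.5 ± 13.3 (log2 0.71, adjusted p = 0.000344) and *Gad2* from 67.4 ± 5.89 to 99.8 ± 21.6 (log2 0.60, adjusted p = 0.00158). *Slc17a6* was at 577 ± 75.5 and 502.3 ± 68.3 CPM (log2 -0.20, adjusted p = 0.294). In the same comparison over all All-Hypo cells, *Gad1* was at log2 0.03 (adjusted p = 0.781) and *Gad2* at -0.23.

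The cluster led by *Tfap2b* held 27.8% of Eed-cKO and 0.269% of control *Ebf*-positive neurons. Without it *Gad1* was at log2 0.34 (adjusted p = 0.223), *Slc32a1* at -0.10 and *Gad2* at -0.08, none of them called, and the number of genes called was 218 in place of 507. Within the clusters led by *Barhl1* and *Neurod6* alone, *Gad1* was at 0.58 (adjusted p = 0.464) and *Gad2* at -0.76. The part of that cluster in the difference was not tested beyond these values.

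With 6 Hox UMIs in all control All-Hypo cells, Hox genes could reach the 15 UMIs of the filter only through Eed-cKO. Their direction was thus set beforehand and is no result about these neurons. Of 34 Hox genes, 26 passed in *Ebf*-positive neurons and all were called higher in Eed-cKO, as were 25 of 25 tested in All-Hypo cells. The AP-2 factors *Tfap2a* (1.61 ± 1.81 to 24.8 ± 10.5 CPM) and *Tfap2b* (16.7 ± 12.7 to 77.7 ± 47.6), and *Pax2* and *Pax8*, were called higher in *Ebf*-positive Eed-cKO neurons. Without the cluster led by *Tfap2b*, *Tfap2b* (log2 0.54, adjusted p = 0.724) and *Pax2* (2.24, adjusted p = 0.198) were not called. *Vax2*, a ventral homeodomain factor, had 0 UMIs in control and 33.6 ± 6.42 CPM in Eed-cKO, so it too passed the filter through Eed-cKO alone. *Ebf4* rose from 26.3 ± 5.29 to 41.4 ± 13.4 CPM (log2 0.56, adjusted p = 0.0413; not called with thinning, adjusted p = 0.383, or without the cluster led by *Tfap2b*, adjusted p = 0.345), and in All-Hypo cells by 0.33 (adjusted p = 0.0102), while *Zfp423* and *Zfp521* passed in neither. *Zfp703* rose in All-Hypo cells (log2 0.85, adjusted p = 0.000418) and was at 0.30 in *Ebf*-positive neurons (adjusted p = 0.706). Of the 16 neighbouring factors 1, *Meis2*, was called (log2 1.83, adjusted p = 3.50e-05), and it was not called without the cluster led by *Tfap2b* (0.49, adjusted p = 0.633) or in the clusters led by *Barhl1* and *Neurod6* alone (-0.08).

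In *Barhl*-positive neurons (550 of each genotype, 6 control and 8 Eed-cKO embryos with at least 10) 0.887% of 12293 were called higher and 0.342% lower. None of the 6 transmitter genes passed, with *Gad1* at log2 0.49 (adjusted p = 0.0919) and *Slc17a6* at -0.08. Of the 16 neighbouring factors 2 were called, both higher. Of these, *Foxp1* rose from 154 ± 28.0 to 251 ± 85.3 CPM (log2 0.79, adjusted p = 0.00114), with 6 of 8 Eed-cKO embryos above all controls. *Foxa1* (adjusted p = 0.996), *Lmx1a* (log2 0.10) and *Irx5* (-0.08) had values near 0. The *Foxp1* call was also made within the clusters led by *Barhl1* and *Neurod6* alone, at 0.83 (adjusted p = 0.00153), and with cells thinned to 2000 UMIs, at 0.81 (adjusted p = 0.00402).

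In these neurons 16 of 34 Hox genes passed the filter on counts, again only through Eed-cKO, and 15 were called higher. That direction was set beforehand by the filter. *Gata3*, a GATA factor, had 0 UMIs in control and 39.8 ± 16.1 CPM in Eed-cKO, and *Vax2* 0 UMIs and 19.1 ± 6.57 CPM. Both passed the filter through Eed-cKO alone. The cluster led by *Tfap2b*, with *Gata3* and Hox genes among its top genes, held 15.6% of Eed-cKO and 0.182% of control *Barhl*-positive neurons. Without it 79 genes were called between genotypes in place of 151. Values of *Gata3* and the Hox genes in that refit are not reported here, and the part of the cluster in their rises was not tested further. Among the largest falls without overlap were *Myo7a*, an unconventional myosin, from 19.9 ± 9.83 to 1.06 ± 1.35 CPM (log2 -3.82, adjusted p = 1.02e-06), *Rps13*, a ribosomal protein gene, from 520 ± 51.4 to 223 ± 24.1 (log2 -1.21), *Fam103a1* and *Arl6ip1*. *Myo7a* (log2 -4.04) and *Rps13* were also among the largest falls in *Ebf*-positive neurons, with *Sla*, *Cdh9* and *Lincenc1*. *Myo7a*, *Rps13* and *Arl6ip1* lie on chromosome 7, as *Eed* does. That chromosome held 7.13% of the genes tested in *Barhl*-positive neurons and 7 of the 42 called lower, and in *Ebf*-positive neurons 7.21% of those tested and 13 of the 203 called lower. Of markers of other cells, few passed the filter: in *Ebf*-positive neurons 1 of 4 vascular leptomeningeal, 1 of 1 pituitary, 0 of 1 endothelial and 0 of 1 pericyte markers were called higher, and in *Barhl*-positive neurons 0 of 1 vascular leptomeningeal, 0 of 1 pituitary and 0 of 1 endothelial ones.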

How the data were processed

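Single-cell libraries were made from E18.5 hypothalamus on the ddSEQ platform. The authors aligned reads to mm10 with STAR 2.5.2b (SAMtools 1.3 is also named in the submitters' processing notes) and deposited 1 table of raw UMI counts per gene and cell; every cell in it had at least 601 UMIs and 318 genes, and no gene totalled under 7. Cells were clustered and clusters named from marker lists (scanpy 1.11.5), with doublets treated as an alternative (the 6% of cells with the highest Scrublet scores left out). UMIs were summed per embryo, the replicate, and tested with edgeR 4.0.16 (quasi-likelihood test, TMM, R 4.3.3; Benjamini-Hochberg at 0.05). Genes needed 15 UMIs in all and 2 in 1 sum, and in All-Hypo also a median log-CPM of 1.5. CPM of embryo sums is TMM-scaled, and that of clusters is not. Positive against negative fits blocked the embryo and needed 5 positive cells, and genotype fits within positive neurons 10. Member genes were left out of the table they defined. Transmitter shares were tested by exact permutation over embryos. Alternatives were other scalings, filters and tools (DESeq2 1.42.0, limma 3.58.1), sex as a term, thinning, and each embryo left out. Scripts were tested on simulated data.

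The members, gene lists and tests were chosen with earlier results of these data known. The text names the members, *Eed*, listed genes and, in each fit, the 5 largest rises and falls that all embryos shared or that did not overlap. Some of the genes that this rule names, counted among their lists, are not reported here. The labels do not say what the leading number of a library name is, and it was read as the litter. Intervals of counts and all p-values cover the spread between these embryos only.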

Additional observations from a re-analysis of the deposited data

Results flagged for a closer look

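Of 38 groups of embryos examined for a value far from the others, 4 held one by Dixon's 95% limit, where chance alone flags about 1 in 20 groups. *Ebf1* in control was at 27.0 CPM in embryo 2, with the next embryo at 19.3, and in Eed-cKO at 51.4 CPM in embryo 8, with the next at 33.0. In control, the share of neurons with both *Slc17a6* and *Slc32a1* was 2.15 percentage points higher in *Ebf2*-positive than in negative neurons of embryo 3, with the next embryo at -0.40, and 2.22 points higher with *Ebf3* in embryo 5, with the next at 0.02.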

How the results depend on the processing

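No paired analysis was possible because the labels give the control and Eed-cKO libraries no replicate number in common and no litter name holds both genotypes. Genes called in All-Hypo cells numbered 3482, and 2272 with cells thinned to 2000 UMIs, 5860 with each library as a sample, 1496 by limma-voom with a minimum fold, 1821 in neuron-like clusters alone and 2834 to 3856 with an embryo left out. Leaving out each embryo gave log2 values of 0.46 to 0.70 for *Ebf1*, -1.01 to -0.72 for *Ebf2*, -0.14 to 0.02 for *Ebf3*, 0.34 to 0.60 for *Barhl1* and -0.09 to -0.02 for *Barhl2*, which was -0.25 with thinning and 0.18 without the cluster led by *Tfap2b*.

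Thinning, which leaves fewer UMIs per cell, called 162 and 176 genes in *Ebf1*-positive neurons of control and Eed-cKO, 171 and 314 with *Ebf2*, 489 and 515 with *Ebf3*, 379 and 542 with *Barhl*, and 175 and 42 between genotypes in *Ebf*- and *Barhl*-positive neurons (507 and 151 as reported). The latter 2 counts were 96 and 82 in the clusters led by *Barhl1* and *Neurod6* alone and 218 and 79 without the cluster led by *Tfap2b*, and 89 for *Barhl* without cells of 1 UMI. Transmitter shares passed in 3 comparisons without the highest Scrublet scores and 3 without the cluster led by *Tfap2b* (5 as reported), and their genotype difference in 2 without thinning, 1 without those scores and 2 without that cluster (0 as reported).

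Without the cluster led by *Tfap2b*, the sign turned for *Foxa2* in All-Hypo cells (-0.13), *Tfap2b* with *Ebf1* in Eed-cKO (0.70), *Hoxb3* with *Barhl* in Eed-cKO (0.29), *Gad2* (-0.075) and *Slc32a1* (-0.10) between genotypes in *Ebf*-positive neurons, the share with both transporters with *Ebf2* in Eed-cKO (0.59 points) and, with *Ebf3* in Eed-cKO, *Hoxa10* (0.090), *Hoxb13* (0.052), *Hoxb3* (0.32), *Hoxc10* (0.27), *Hoxc13* (0.85), *Hoxd10* (0.53), *Hoxd4* (0.38), *Hoxd9* (0.10) and *Tfap2b* (1.46). In the clusters led by *Barhl1* and *Neurod6* alone it turned for *Gad2* (-0.76) and *Meis2* (-0.080), and in neuron-like clusters alone for *Igfbp3* (-0.88). The cause was not tested. Settings without the clusters led by *Tfap2b* or *Alas2*, without cells of 1 UMI and with chosen clusters alone were added after seeing the data. The Eed-cKO embryo with the fewest UMIs limits its own values most.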
